A study of Mus musculus with 6 samples.

Results

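Translation of an mRNA is carried out by initiation factors (eIFs), which bring the ribosome to the start codon, and by elongation factors (eEFs), which move it along the coding sequence. The genes described here are the rows of the count table whose symbol begins with Eif1 to Eif6 or with Eef1 or Eef2, leaving out Eif4ebp1, Eif2ak3, Eif2ak4 and Eef1e1. This rule found 60 of the 24411 genes, and it uses names and no measured value. RNA came from the extensor digitorum longus (EDL), a fast-twitch muscle of the hindlimb. It was taken at 50 weeks of age from 3 mice lacking Akt1 and Akt2 in skeletal muscle (mAktDKO) and 3 control floxed mice. All 6 mice were C57BL/6J and carried the Akt1/2-floxed alleles. In the mAktDKO mice these alleles were deleted by a Cre knocked in at Mlc1f, a myosin light chain gene used mainly by fast fibres, so that cells of other types in the muscle keep Akt1 and Akt2. The control mice carry no Cre, so the effect of the knock-in itself cannot be told apart from that of the deletion. According to the methods of the study, mice were male unless stated otherwise.

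Akt is a kinase downstream of the insulin and IGF-1 receptors. Through mTORC1 it leads to phosphorylation of the 4E repressors, which frees the cap-binding protein eIF4E, and to inhibition of the kinase of eEF2. It also inhibits GSK3, which phosphorylates the catalytic subunit of eIF2B. These controls act on proteins that already exist, and RNA levels do not read them. Muscle is also known for a switch between the genes for eEF1A, the factor that carries aminoacyl-tRNA to the ribosome. After birth the adult muscle form, Eef1a2, takes over from Eef1a1, which most other cells of the body use.

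Total estimated counts lay between 13738795 and 15445523 per mouse, so that 3 counts correspond to 0.180 to 0.227 CPM, the unit of level used here, in which counts are scaled to the library total after TMM normalisation. Akt2 was at 51.3, 49.1 and 52.7 CPM in the mAktDKO mice and at 172, 133 and 143 CPM in the control mice (log2 fold change -1.55, SE 0.11, adjusted p = 0.000923, edgeR). Akt1 was at 55.7 ± 3.89 against 66.2 ± 0.56 CPM (SD, n = 3; log2 fold change -0.25, edgeR adjusted p = 0.114). All 10 fast fibre markers were present and lower in the mAktDKO mice, 7 of them without overlap, and their summed level was 130600 to 145400 against 150300 to 161500 CPM. Of these, Myh4 was nearly level between groups, at 49980 ± 2958 against 50610 ± 4435 CPM (log2 fold change -0.02, edgeR adjusted p = 0.944). All 6 fibroblast markers were higher, 3 without overlap, with sums of 27730 to 33630 against 10850 to 27130 CPM. All 5 macrophage and leukocyte markers were higher too, 3 without overlap, with sums of 59.9 to 71.5 against 43.1 to 60.0 CPM that overlapped narrowly. For comparison, 16.6% of all genes tested were lower without overlap and 14.5% higher. Markers of slow fibres (6 of 6), satellite cells (3 of 3), adipocytes (4 of 4), Schwann cells (4 of 4) and blood (3 of 3) were higher, as were 4 of 5 endothelial and 1 of 3 smooth muscle markers. Without overlap were 2 Schwann cell markers, 1 satellite cell marker, 1 blood marker and 0 of the slow fibre, adipocyte, endothelial and smooth muscle markers. The sums overlapped for slow fibres (630 to 1239 against 538 to 832 CPM) and for adipocytes (19.8 to 66.5 against 13.8 to 33.1 CPM). Of the blood markers, the globin gene Hbb-bs was at 9.21 to 23.5 CPM in the mAktDKO mice and at 0 counts in every control mouse, while Hba-a1 and Hbb-bt overlapped between groups. No marker was at 0 in all mice. The control column numbered 2 stood apart from the rest, with correlations of log2 CPM of 0.961 to 0.977 with the other mice and the lowest fibroblast sum. In RNA of whole muscle, fewer cells of a type and less RNA per cell cannot be told apart. The part of these other cells in the values below was not tested.

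Of the 60 factor genes, 58 had enough counts for the test. Eif4e1b, a cap-binding paralog, had 0 counts in every mouse, which allows up to 0.227 CPM, and Eif3j1 stayed under 0.05 CPM. At an adjusted p under 0.01, edgeR called 0 of the 58, where it called 0.0233% of the 12892 genes tested. At an adjusted p under 0.05 it called 0 of the 58 against 1.18% of all genes tested. Eif2b4 came nearest and passed 0.05 in 3 edgeR alternatives, with no filter on low counts (adjusted p = 0.0341), with at least 10 counts in every mouse (0.0437) and without control mouse 4 (0.0376). Before adjustment, 19 of the 58 had an edgeR p under 0.05, which is 32.8% against 24.5% of all genes tested, and 12 without mAktDKO mouse 2. Of these, 16 were lower in the mAktDKO mice and 3 higher, where 13.1% of all genes tested were lower and 11.4% higher at that p. DESeq2 with its default filter called 3 of the 57 genes for which it gave an adjusted p, namely Eef1a1, Eef1a2 and Eif2b4, at a threshold of 0.01, against 3.09% of all genes, and 3 at 0.05 against 7.33%. With that filter off, DESeq2 called 1, Eef1a1, against 1.48% of all genes.

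The differences were small and more often negative than positive. The log2 fold change was below 0 in 40 of the 58 genes (69.0%, against 47.5% of all genes tested), with a median of -0.11 against 0.02 for all genes. Without control mouse 2 the median was -0.070 and 34 of the 58 were below 0. With library totals as the only scaling, the median of all genes was 0.16 and 25 of the 58 were below 0, while 40 of the 58 were below the median of all genes under either scaling. The values of the 3 mAktDKO mice and the 3 control mice did not overlap in 26 genes (44.8%), against 31.1% of all genes tested. In 22 of these the mAktDKO mice were lower, against 16.6% of all genes, and in 4, Eef1a1, Eif1b, Eif5a2 and Eif2ak2, they were higher, against 14.5%.

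**Figure D1:**
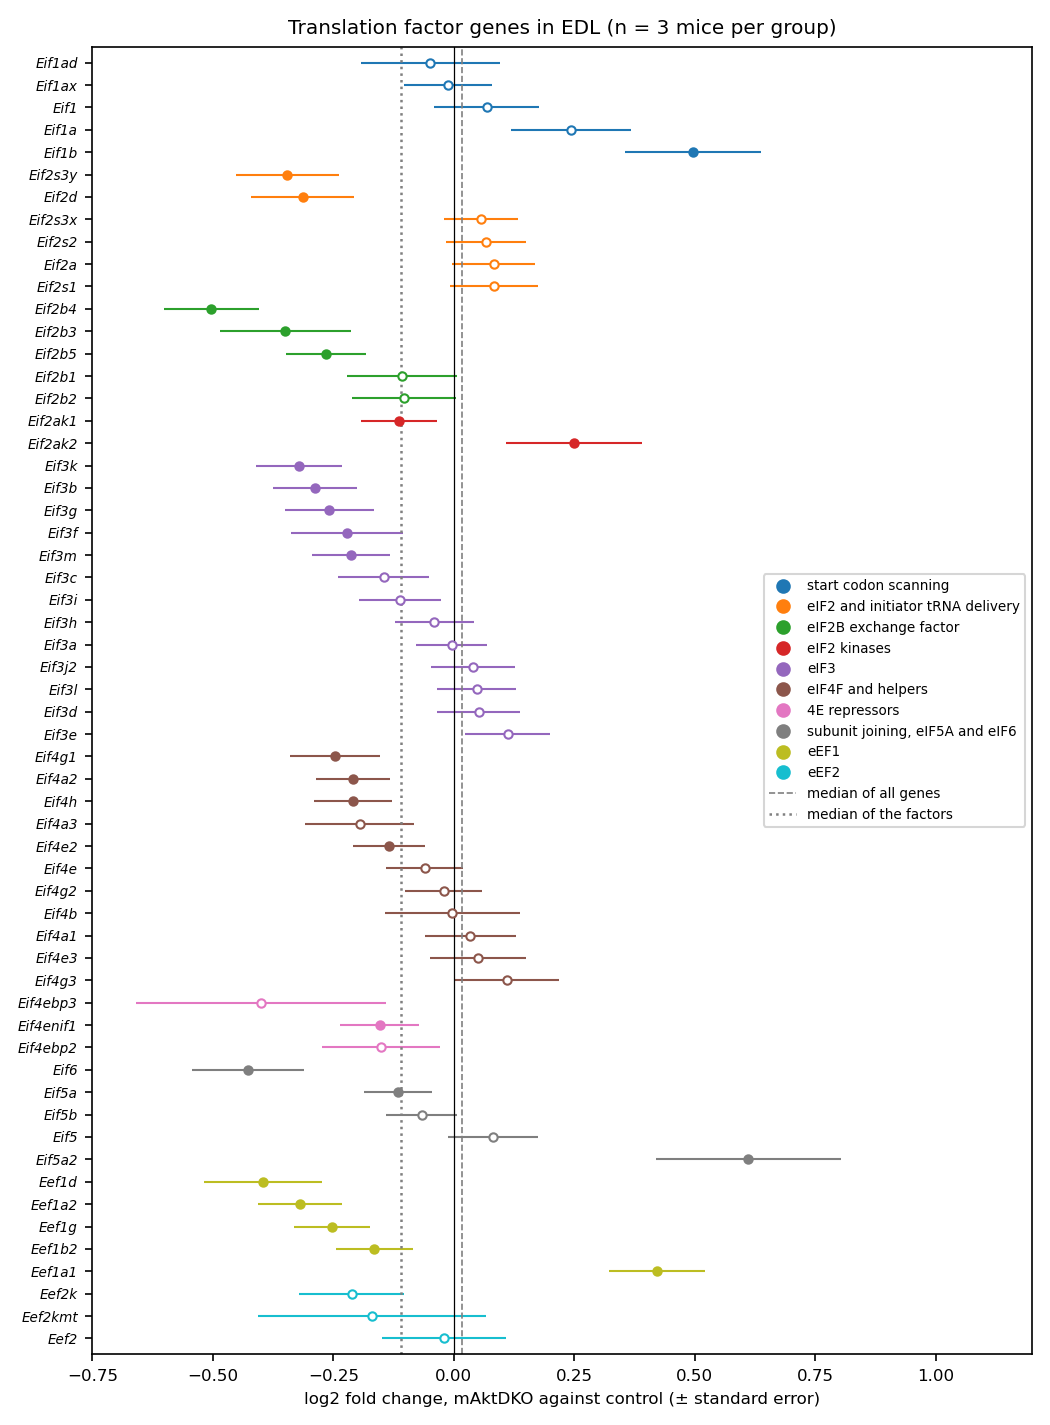
Log2 fold change of each of the 58 tested factor genes (points, ± standard error, n = 3 mice per group), coloured by role; filled points are genes whose groups did not overlap, and vertical lines mark 0, the median of all genes (0.02) and the median of the factors (-0.11). Most points lie left of 0, and Eif5a2, Eif1b and Eef1a1 lie farthest to the right.

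The paralogs of the elongation factor eEF1A differed in opposite directions. Eef1a1 (chr9:78478449-78489151, GRCm38, minus strand) was at 649, 691 and 609 CPM in the mAktDKO mice and at 432, 523 and 500 CPM in the control mice. Every mAktDKO mouse was above every control mouse, with a log2 fold change of 0.42 (SE 0.10). Eef1a2 (chr2:181147653-181157014, minus strand) was at 1014, 959 and 1020 CPM in the mAktDKO mice and at 1314, 1242 and 1180 CPM in the control mice. Here every mAktDKO mouse was below every control mouse, with a log2 fold change of -0.32 (SE 0.09). Neither passed edgeR (adjusted p = 0.0637 and 0.0827), and both passed DESeq2 at 0.01 with its default filter (adjusted p = 0.00355 and 0.00911). With that filter off, the DESeq2 adjusted p was 0.00574 for Eef1a1 and 0.0146 for Eef1a2. Without control mouse 2, which had the lowest Eef1a1 and the highest Eef1a2, the edgeR log2 fold changes were 0.34 (adjusted p = 0.0905) and -0.28 (adjusted p = 0.135).

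Divided by transcript length, the levels of both genes can be compared with each other. Eef1a2 was the highest of all 60 factor genes on this scale, at 479 ± 16.1 CPM per kb in the mAktDKO mice and 597 ± 32.1 in the control mice (SD, n = 3). Eef1a1 was at 362 ± 22.7 against 270 ± 26.3 CPM per kb. In the mAktDKO mice its mean stood above those of Eef2 (326 ± 29.8) and Eif1 (287 ± 20). In the control mice its mean was below that of Eef2 (331 ± 53.4) and close to that of Eif1 (273 ± 36). The order against Eef2 did not hold in every mouse of either group. Their sum was 841 ± 10.3 CPM per kb in the mAktDKO mice and 868 ± 21.4 in the control mice. Of that sum, Eef1a2 made up 57.4%, 54.5% and 59.0% in the mAktDKO mice and 72.4%, 67.2% and 67.0% in the control mice. The log2 ratio of Eef1a2 to Eef1a1 in CPM was 0.62 ± 0.14 against 1.36 ± 0.21, a difference of -0.74 with no overlap. Its exact permutation p was 0.1 (two-sided), the smallest that 3 mice against 3 can give. Leaving out 1 mouse at a time, the difference lay between -0.81 and -0.62. The fibroblast marker sums, at 32110, 27730 and 33630 CPM in mAktDKO mice 1 to 3 and 10850, 23180 and 27130 CPM in control mice 2 to 4, were also higher in the mAktDKO mice. Their part in the Eef1a1 difference was not tested.

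**Figure D2:**
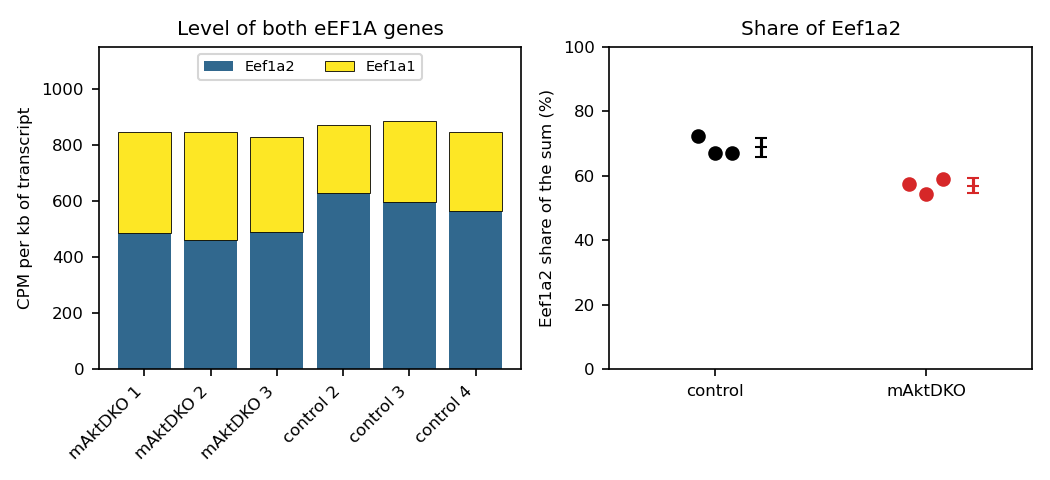
Left, CPM per kb of transcript of Eef1a2 (blue) and Eef1a1 (yellow), stacked for each mouse; right, the share of Eef1a2 in that sum in percent (points are mice, bars the mean ± SD, n = 3). The sum lies between 829 and 887 in all 6 mice, while the Eef1a2 share is 54.5% to 59.0% in the mAktDKO mice and 67.0% to 72.4% in the control mice.

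Because the paralogs resemble each other, the coding sequences were compared to see whether reads of one could be counted for the other. They were identical at 80.1% of 1386 aligned bases, the longest identical run was 23 bases, and no run of 37 bases, the length of a read, was common to both. The first 90 bases of each are shown, from GENCODE M21 (GRCm38), with the 15 bases that differ in capitals.
Eef1a1: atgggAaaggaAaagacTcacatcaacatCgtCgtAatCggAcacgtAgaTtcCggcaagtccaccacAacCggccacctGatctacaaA
Eef1a2: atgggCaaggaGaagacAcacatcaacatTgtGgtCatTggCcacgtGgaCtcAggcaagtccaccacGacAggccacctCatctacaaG
Another gene of the table, Gm6548, contains 15.6% of the 37-base words of the Eef1a1 transcript, so a part of the Eef1a1 counts depends on how the estimate split such reads. With the counts of both summed, the log2 fold change was 0.42 (edgeR adjusted p = 0.0644), as for Eef1a1 alone. Other factor transcripts also shared words with another gene, Eif1 with Emd (20.8%), Eif4a3 with Gm8994 (22.7%) and Eif1a with Gm5039 (5.03%). Their counts carry the same limit.

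The other subunits of eEF1 form the exchange factor that reloads eEF1A with GTP, and their levels were below those of the control mice, without overlap, for all 3. Eef1d, an exchange subunit, was at 60.2, 47.3 and 54.5 CPM against 82.4, 65.7 and 65.1 CPM (log2 fold change -0.40, SE 0.12, edgeR adjusted p = 0.106). Eef1g, the scaffold subunit, was at 289, 278 and 288 against 361, 330 and 329 CPM (-0.25, edgeR adjusted p = 0.108). Eef1b2, the other exchange subunit, was nearer between groups at 66.0 ± 3.04 against 73.9 ± 4.21 CPM (-0.16, edgeR adjusted p = 0.239). So the eEF1 genes were 4 lower and 1 higher, with all 5 apart between groups, where 31.1% of all genes tested were apart.

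Eef2, the factor that translocates the ribosome by a codon, overlapped between groups at 948, 962 and 1114 CPM against 1196, 868 and 1002 CPM. Its log2 fold change of -0.02 (SE 0.13) changed sign with several settings. Eef2k, the kinase that inhibits eEF2, was at 55.5 ± 4.82 against 64.2 ± 8.25 CPM (-0.21, edgeR adjusted p = 0.263), and Eef2kmt, which methylates eEF2, was at 3.96 ± 0.34 against 4.45 ± 1.39 CPM. Both overlapped between groups. Without control mouse 2, Eef2k was at -0.10.

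Initiation begins with the scanning factors eIF1 and eIF1A, which hold the small subunit open until a start codon is found. Eif1b (chr9:120492232-120495330, plus strand), the minor paralog of Eif1, was at 13, 17.6 and 16.8 CPM in the mAktDKO mice against 11.6, 9.92 and 12 CPM in the control mice. The groups did not overlap (log2 fold change 0.50, SE 0.14, edgeR adjusted p = 0.0908). Eif1 itself, at 379 ± 26.8 against 361 ± 47.4 CPM, overlapped, as did Eif1a at 15.1 ± 1.22 against 12.8 ± 1.66 CPM (0.24, edgeR adjusted p = 0.258, and 0.15 without control mouse 2). The eIF1A gene Eif1ax was level between groups, at 38.8 ± 1.73 against 39.1 ± 3.38 CPM.

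eIF2 carries the initiator tRNA, and its alpha subunit Eif2s1 is the target of the stress kinases. The alpha, beta and X-linked gamma subunit genes overlapped between groups, with log2 fold changes of 0.08 (Eif2s1), 0.07 (Eif2s2) and 0.06 (Eif2s3x). With 1 mouse left out, Eif2s1 lay between 0.04 and 0.16, Eif2s3x between 0.02 and 0.10, and Eif2s2 between -0.01 (without mAktDKO mouse 3) and 0.11. Eif2s3y, the Y-linked copy of the gamma subunit, differed from them at 31.8, 24.8 and 28.1 CPM against 38.2, 34.4 and 35.1 CPM. Its groups did not overlap (-0.35, SE 0.11, edgeR adjusted p = 0.106). Eif2d, an alternative tRNA delivery factor, was at 14.3 ± 0.68 against 17.7 ± 1.71 CPM without overlap (-0.31, edgeR adjusted p = 0.130). Eif2a, another such factor, was at 39.8 ± 1.62 against 37.5 ± 2.73 CPM and overlapped.

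eIF2B exchanges the GDP of eIF2 for GTP after each round of initiation, and each of its 5 subunit genes had a negative log2 fold change (median -0.27). Eif2b4 (chr5:31187558-31193430, minus strand), the delta subunit, had the smallest p of all 58 factor genes. It was at 27.5, 24.4 and 27.3 CPM in the mAktDKO mice and at 39.9, 38.7 and 33.5 CPM in the control mice. These groups were well apart (-0.50, SE 0.10, edgeR adjusted p = 0.0506, DESeq2 adjusted p = 0.00636 with its default filter and 0.0101 without it). Eif2b3, the gamma subunit, was at 12.1, 8.63 and 10.2 against 13.5, 13.1 and 12.6 CPM (-0.35, edgeR adjusted p = 0.161). Eif2b5, the catalytic epsilon subunit, was at 43.2, 41.3 and 42.9 against 55.1, 47.9 and 50.1 CPM (-0.27, edgeR adjusted p = 0.108). The groups of these 3 genes did not overlap (31.1% of all genes tested), while those of Eif2b1 (-0.11) and Eif2b2 (-0.10) did. With library totals as the scaling, Eif2b4 was at -0.37, Eif2b3 at -0.21 and Eif2b5 at -0.13, and Eif2b1 and Eif2b2 turned positive at 0.03 and 0.04. With 1 mouse left out, Eif2b1 lay between -0.19 (without mAktDKO mouse 1) and -0.02 (without mAktDKO mouse 2), and Eif2b2 between -0.18 (without control mouse 4) and -0.03 (without control mouse 2).

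The kinases of eIF2 that the rule includes differed in opposite directions, each without overlap, as were 14.5% of all genes tested on the higher side and 16.6% on the lower. Eif2ak2, the kinase PKR activated by double-stranded RNA, was at 7.76 ± 0.44 against 6.54 ± 0.85 CPM (0.25, edgeR adjusted p = 0.302, and 0.15 without control mouse 2). Eif2ak1, the heme-regulated kinase, was at 37.6 ± 0.43 against 40.7 ± 2.16 CPM (-0.11, edgeR adjusted p = 0.394), with a log2 fold change of 0.03 under library totals and of -0.07 without control mouse 2.

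eIF3 is the large scaffold that joins the small subunit to the mRNA, and 9 of its 13 tested genes were lower, 5 of them without overlap, with a median of -0.11. Of all genes tested, 47.5% were lower, 31.1% did not overlap, and 16.6% were lower without overlap. Without control mouse 2, Eif3a turned to 0.01 and Eif3h to 0.007, and Eif3c moved from -0.15 to -0.05. Under library totals Eif3a (0.13), Eif3h (0.098) and Eif3i (0.028) were positive. The other lower genes kept their sign in both settings. Eif3k, an accessory subunit, was at 27.1, 25.9 and 24.7 against 34.6, 30.1 and 32.4 CPM (-0.32, SE 0.09, edgeR adjusted p = 0.0875). Eif3b, a core subunit, was at 88.1, 83.0 and 83.8 against 114, 95.7 and 101 CPM (-0.29, edgeR adjusted p = 0.102). Eif3g, a subunit with an RNA-binding domain, was at 28.6 ± 0.99 against 34.2 ± 3.02 CPM (-0.26, edgeR adjusted p = 0.140). Eif3f (-0.22, and -0.09 without control mouse 2) and Eif3m (-0.21) completed the 5. At the other end, Eif3a, the largest subunit, was at 211 ± 5.92 against 212 ± 5.25 CPM, and Eif3e was at 0.11, or 0.03 without mAktDKO mouse 3 and 0.07 without control mouse 3. The table counts Eif3j as Eif3j1 and Eif3j2, and Eif3j1 contains 92.9% of the 37-base words of Eif3j2, so only their sum can be read, with a log2 fold change of 0.04.

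eIF4F binds the cap through eIF4E, unwinds the leader with the helicase eIF4A, and bridges to eIF3 through eIF4G. Eif4e was at 63.2 ± 2.92 against 65.8 ± 3.75 CPM and overlapped between groups (-0.06, edgeR adjusted p = 0.670). Its log2 fold change was -0.11 without mAktDKO mouse 3, -0.02 without control mouse 3 and 0.075 under library totals. Eif4a2, the more abundant of the helicase genes here, was at 254, 236 and 250 against 286, 292 and 278 CPM without overlap (-0.21, SE 0.08, edgeR adjusted p = 0.145). Eif4g1, the main scaffold, was at 590, 574 and 628 against 779, 668 and 679 CPM, again without overlap (-0.25, edgeR adjusted p = 0.154). Eif4h, which stimulates eIF4A, was at 96.5 ± 6.55 against 112 ± 4.06 CPM (-0.21, edgeR adjusted p = 0.161), and Eif4e2 (-0.13) was the fourth of 11 tested genes of this group without overlap, all lower, where 16.6% of all genes tested were lower without overlap. Eif4a1, Eif4b and Eif4g2 lay between -0.02 and 0.03 with all mice. With 1 mouse left out, Eif4b ran from -0.13 (without mAktDKO mouse 3) to 0.13 (without control mouse 2). Eif4a1 ran from -0.02 (without mAktDKO mouse 1) to 0.11 (without mAktDKO mouse 3). The repressors of eIF4E in the rule were Eif4ebp2 at 70.1 ± 5.40 against 77.9 ± 12.7 CPM, Eif4ebp3 at 2.01 ± 0.29 against 2.65 ± 0.67 CPM, and Eif4enif1 at 29.0 ± 0.60 against 32.3 ± 1.64 CPM. The log2 fold change of Eif4ebp2 was -0.15 with all mice, -0.03 without control mouse 2, -0.23 without mAktDKO mouse 3 and -0.27 without control mouse 3. Of these only Eif4enif1, the carrier that takes eIF4E into the nucleus, did not overlap (-0.15, edgeR adjusted p = 0.275).

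In the last step eIF5 and eIF5B join the ribosomal subunits, eIF6 keeps the large subunit apart until it is needed, and eIF5A helps the ribosome past difficult peptide bonds. Eif6 (chr2:155819832-155826925, minus strand) was at 16.2, 14.3 and 15.2 CPM in the mAktDKO mice against 23.4, 19.8 and 18.3 CPM in the control mice (-0.43, SE 0.12, edgeR adjusted p = 0.0836). Eif5a2 (chr3:28781276-28798846, plus strand) was at 5.14, 4.91 and 5.69 against 2.66, 4.01 and 3.63 CPM (0.61, SE 0.19, edgeR adjusted p = 0.109), the largest positive log2 fold change of the 58. Eif5a, its abundant paralog, was at 163, 158 and 158 against 173, 171 and 174 CPM (-0.11, edgeR adjusted p = 0.335). None of these 3 genes overlapped between groups, as for 31.1% of all genes tested, whereas Eif5 (0.08) and Eif5b (-0.07) did. Eif5 was at -5.03e-05 without mAktDKO mouse 3 and at 0.15 without control mouse 4. For Eif5b the values without these mice were -0.11 and -0.04. Under library totals Eif5a was at 0.02 and Eif5b at 0.07.

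**Figure D3:**
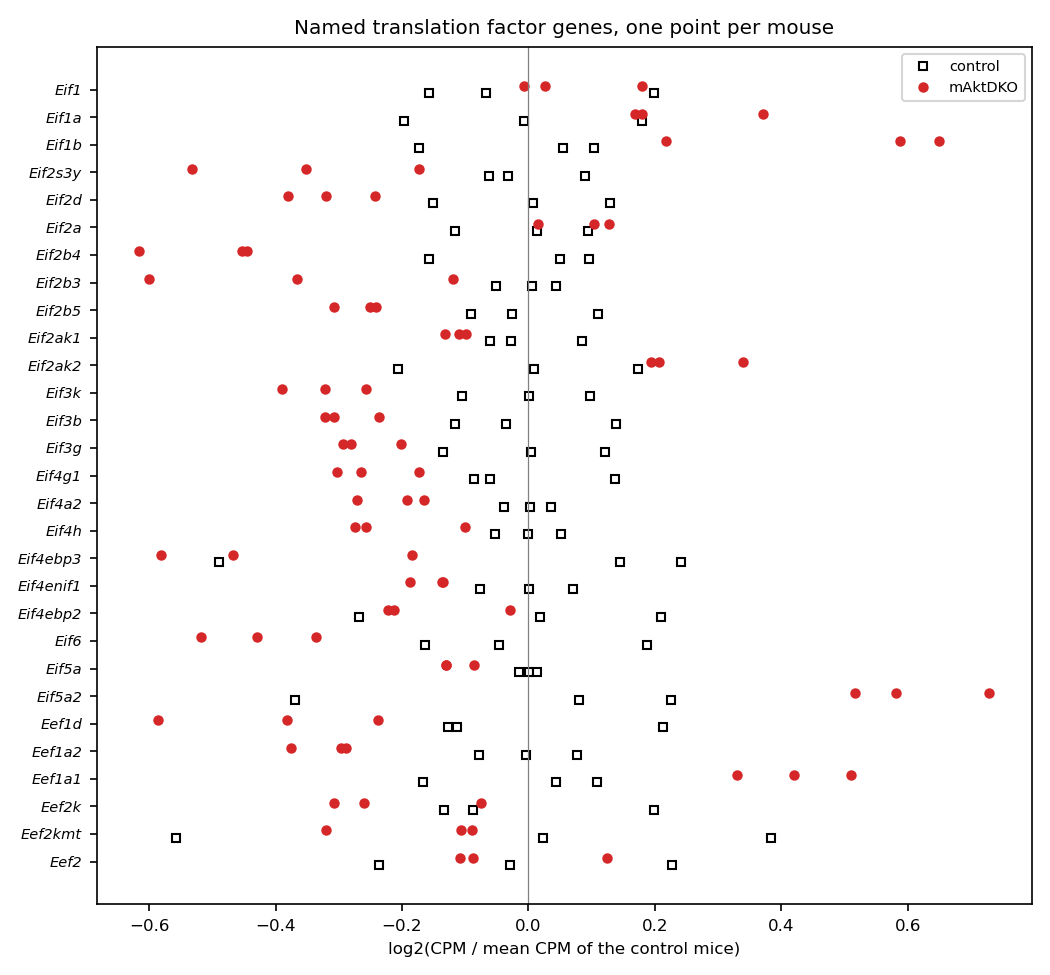
CPM of 29 factor genes in each mouse (open squares, control; red circles, mAktDKO), as the log2 ratio to the mean of the 3 control mice. Eif2b4, Eif6 and Eef1a2 have all mAktDKO mice left of all control mice, Eef1a1, Eif1b and Eif5a2 have them to the right, and Eef2 and Eif4ebp2 overlap.

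A ratio of paralogs within a mouse does not depend on the scaling between mice. Besides the eEF1A pair, 8 pairs were compared, chosen after their values were seen. The log2 ratio of Eif5a2 to Eif5a was -4.89 ± 0.11 in the mAktDKO mice and -5.62 ± 0.30 in the control mice (SD, n = 3), a difference of 0.73. The differences were 0.41 for Eif1b to Eif1, 0.35 for Eif4g3 to Eif4g1, 0.25 for Eif1a to Eif1ax and -0.41 for Eif2s3y to Eif2s3x. In these 5 pairs and in the eEF1A pair the groups did not overlap (exact permutation p = 0.1 each, 0.15 after Benjamini-Hochberg adjustment over the 9 pairs). They overlapped for Eif4a2 to Eif4a1 (-0.24), Eif4e2 to Eif4e (-0.08) and Eif4ebp3 to Eif4ebp2 (-0.22). Per length, Eif5a2 was at 0.00963-fold of Eif5a in the mAktDKO mice and 0.00583-fold in the control mice, so it was the minor form in both groups.

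**Figure D4:**
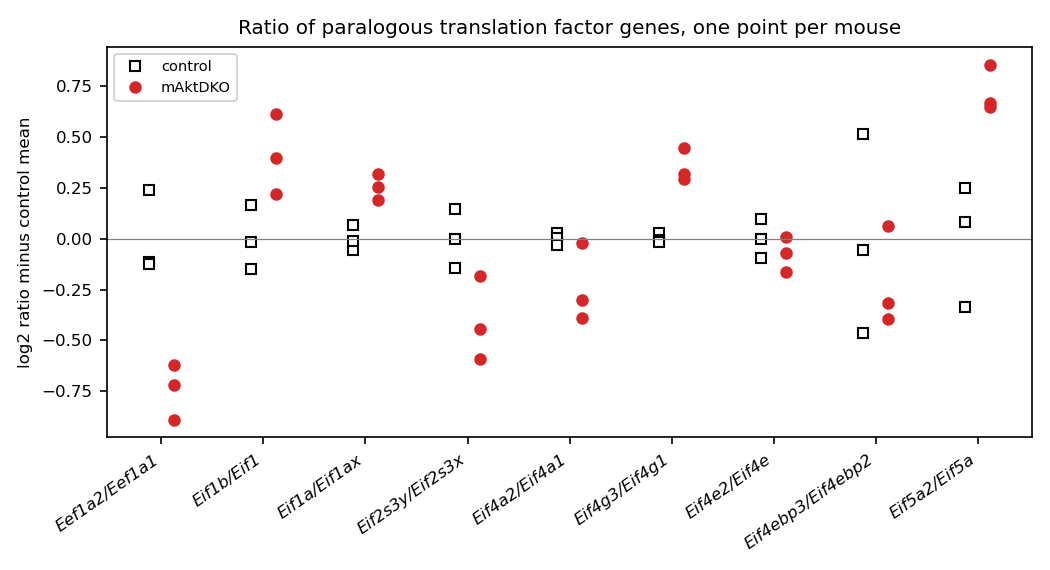
Log2 ratio of CPM of 9 paralog pairs in each mouse, after subtraction of the mean of the control mice (open squares, control; red circles, mAktDKO). The groups are apart in 6 pairs, and the differences are widest for Eef1a2 to Eef1a1 (-0.74) and Eif5a2 to Eif5a (0.73).

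Several factor genes share a feature that the rule did not use, the E-box CACGTG, a palindrome bound by Myc and related proteins. RefSeq promoter windows (GRCm38.p6), which run from 250 bases before the annotated start to 50 after it, were matched for 47 of the 60 genes. The part before the start was searched. The 6 letters were found in 11 of the 47 (23.4%), against 9.92% of the tested genes with a window. By window, this was 21.3% of the 61 of factor genes against 8.21% of those of tested genes and 6.02% of all 32851. The log2 fold changes of the 11 had a median of -0.11, the same as for the 35 tested factor genes with a window and no E-box (-0.11). The groups did not overlap in 7 of the 11 and in 15 of the 35, and, among all tested genes with an E-box window, in 301 of 966. The sites of these 7 are shown with 12 bases on each side, read along the strand of the gene, with the E-box in capitals.
Eif5a2, chr3:28781123-28781152, plus strand: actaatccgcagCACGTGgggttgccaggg
Eif5a2, chr3:28781148-28781177, plus strand: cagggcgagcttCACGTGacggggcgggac
Eif1b, chr9:120492570-120492599, plus strand: cgtgcggacggtCACGTGgcggcggcgcgc
Eif3k, chr7:28981915-28981944, minus strand: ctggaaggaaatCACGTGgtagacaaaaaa
Eif3f, chr7:108934335-108934364, plus strand: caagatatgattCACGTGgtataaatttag
Eif4g1, chr16:20672661-20672690, plus strand: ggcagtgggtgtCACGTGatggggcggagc
Eif4h, chr5:134639488-134639517, minus strand: cggccgccgcacCACGTGggccgcagagcg
Eif5a, chr11:69921443-69921472, minus strand: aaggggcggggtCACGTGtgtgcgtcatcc
Eif5a, chr11:69920791-69920820, minus strand: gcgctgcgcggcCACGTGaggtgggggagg
Of these 7 genes Eif5a2 and Eif1b were higher and the other 5 lower. Over all 11 genes with an E-box, 8 were lower and 3 higher. Among the 966 tested genes with an E-box window, 449 were lower and 517 higher. The part of the E-box in these differences was not tested. Other motifs were searched on both strands, and the shares are given for the windows of factor genes, of tested genes and of all genes, in that order. GGGCGG (the GC box) was in 68.9%, 57.0% and 32.7%, CCGGAAGT (an ETS site) in 8.20%, 5.42% and 2.88%, and CCAAT in 21.3%, 34.5% and 33.8%. TATAAA was in 8.20%, 6.73% and 12.4%, and TGATGNAAN, the ATF4 composite site, in 3.28%, 1.96% and 3.44%. GTAAACA, bound by the FoxO factors that Akt inhibits, was in 1 window of a factor gene, that of Eif2s3y (1.64%, 2.11% and 3.17%), and TGACGTCA (CRE) was in 0, against 2.51% and 1.55%. CANNTG, which includes CACGTG, was in 45.9%, 57.9% and 66.2%.

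Some factor mRNAs begin with a 5′ terminal oligopyrimidine (TOP) tract, through which mTORC1 controls their translation. Of 9 factor genes listed as TOP genes, 7 were lower and 2 higher (Eef1a1 and Eif3e), with a median log2 fold change of -0.04. Among all genes tested, 47.5% were lower. Without control mouse 2, Eef2 turned to 0.11, Eif3h to 0.007 and Eif4b to 0.13. Under library totals these genes were positive too, at 0.12, 0.098 and 0.13, but stayed below the median of all genes under that scaling (0.16). The count of genes with a negative sign therefore depended on both choices. Their place below the median of all genes did not change with the scaling. Against 31.1% of all genes tested, 5 of the 9 were without overlap, the eEF1 genes Eef1a1, Eef1b2, Eef1d and Eef1g, and Eif3f. The count of translated mRNA was not measured here.

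A list of 58 other translation genes, all tested, was set beside the factors. edgeR called 0 of them at 0.01 and at 0.05, and 17 of the 58 had an unadjusted p under 0.05 (12 lower, 5 higher), against 24.5% of all genes tested. DESeq2 gave 55 of them an adjusted p and called 1 at 0.01, against 3.09% of all genes, and 5 at 0.05, against 7.33%. Dohh, which completes the hypusine modification that eIF5A needs, was at 19.0, 14.9 and 16.9 CPM against 29.5, 24.4 and 24.5 CPM (-0.63, SE 0.12, edgeR adjusted p = 0.0506, DESeq2 adjusted p = 0.00345). Dhps, which acts before it, overlapped between groups at 7.50 ± 0.13 against 8.81 ± 1.44 CPM. Of 10 mitochondrial translation factors, 9 were lower, 7 of them without overlap, where 47.5% of all genes tested were lower and 16.6% lower without overlap. Among them were Tsfm (-0.70, edgeR adjusted p = 0.0531), Tufm (-0.42, edgeR adjusted p = 0.0699) and Gfm1 (-0.34, edgeR adjusted p = 0.0661), the mitochondrial elongation factors. The 6 genes of the first list, kinases and repressors left out by the rule among them, were all higher, with a median of 0.30. Of all genes tested, 6762 of 12892 were higher. Only 2 of the 6 were without overlap, against 14.5% of all genes tested. Eif2ak4 was nearly level at 6.32 ± 0.21 against 6.24 ± 0.88 CPM (0.02, edgeR adjusted p = 0.951). Eef1e1, a partner of the tRNA synthetase complex despite its name, was at 8.51 ± 0.42 against 6.46 ± 0.22 CPM without overlap (0.40, edgeR adjusted p = 0.103). Eif4ebp1, the 4E repressor outside the rule, was at 18.6, 21.8 and 23.4 against 18.8, 13.5 and 13.5 CPM and overlapped (0.48, edgeR adjusted p = 0.112). A list of 11 genes around mTORC1 holds its subunits, its activator Rheb, its inhibitors Tsc1 and Tsc2, the S6 kinases with their target Rps6, and the eIF4E kinases Mknk1 and Mknk2. Of the 11, 9 were lower, with 3 of them, Mtor (-0.29), Rptor (-0.29) and Tsc2 (-0.24), without overlap (16.6% of all genes tested). The other two, Rps6kb1 (0.20) and Mknk1 (0.23), were higher, also without overlap (14.5%).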

How the data were processed

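The authors sequenced EDL RNA of 3 mAktDKO mice and 3 control floxed mice as rRNA-depleted, directional, paired-end libraries with reads of 37 bases. Submitters' processing notes name bcl2fastq, STAR 2.6.1b, RSEM 1.3.1 and build mm10, and the study's methods give another STAR release. The annotation and strand setting are not given in the sources used here. The deposited values are estimated counts (expected counts) per gene symbol, not scaled between mice. The 3 control columns carry other numbers than the control labels and were used as a group, and 0 columns were left unmapped. No 2 columns were identical.

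Counts were rounded, filtered with filterByExpr (minimum count 10) and normalised by TMM. Groups were compared in R 4.3.3 with the quasi-likelihood F test of edgeR 4.0.16, Benjamini-Hochberg adjustment over 12892 genes and a threshold of 0.01. Standard errors are the absolute log2 fold change over the square root of F. CPM use TMM-scaled totals, and log2 CPM a prior count of 2. DESeq2 1.42.0 was the alternative test. Its independent filter was set to the default after counts with it tuned to 0.01, without it and at the default had been seen, and all 3 are given. Transcripts and positions came from GENCODE M21 (GRCm38, the same build as mm10), promoters from RefSeq. The steps were tested on simulated counts with 200 of 12892 genes changed 2-fold, a larger change than that of any factor gene. At an adjusted p under 0.01, edgeR recovered 172 of the 200 with 6 false calls, and DESeq2 177 with 12 false calls. Smaller changes were not simulated.

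Named genes were Eef1a1, Eef1a2, any factor gene at an adjusted p under 0.05, the 3 with the smallest p in each role, up to 5 other translation genes, and Akt1 and Akt2. Genes outside this rule were named after their values were seen. The rule for the members, the lists and the roles were chosen with earlier results of these data known. Labels number the mice but say nothing of litters, so p-values measure the spread between these samples. Floors cover counting error only. Other scalings, filters and left-out mice were tried.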

Additional observations from a re-analysis of the deposited data

How the results depend on the processing

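edgeR called 0 factor genes at an adjusted p under 0.01 in each alternative run with it, including leaving out each mouse in turn. At an adjusted p under 0.05, edgeR called 1, Eif2b4, with no filter, with at least 10 counts in every mouse and without control mouse 4, and 0 in its other alternatives. DESeq2 called 3 at 0.01 and 3 at 0.05, 3 with its filter tuned to 0.01, 1 without its independent filter, and 2 (Eef1a1 and Eef1a2) without control mouse 2. The level of the DESeq2 filter, the DESeq2 settings other than 0.01 with all mice, and the counts of factor genes at an unadjusted p and at 0.05 across alternatives were chosen after seeing the data. The number of all genes called was 3 with edgeR, 152 at an adjusted p under 0.05, 32 with no filter on low counts and 0 to 8 when 1 mouse was left out (8 without control mouse 2, and 0 without any one of the mAktDKO mice), against 328 with DESeq2, 341 with its filter tuned 257 without it and 232 without control mouse 2. Of the other translation genes DESeq2 called 1 at 0.01. Factor genes at an unadjusted p under 0.05 numbered 12 to 21 with 1 mouse left out, with 12 without mAktDKO mouse 2. Scaling by library totals moved the median of the factor genes from -0.11 to 0.029 and that of all genes from 0.02 to 0.16, and the difference between these medians was -0.13 in both. Under that scaling Eef2 was at 0.12, Eif2ak1 at 0.025 and Eif5a at 0.024. Eef2 was also positive without mAktDKO mouse 1 (0.02), without mAktDKO mouse 2 (0.01) and without control mouse 2 (0.11), where Eef2kmt was at 0.068. With 1 mouse left out, Eef2kmt ranged from -0.383 to 0.068, Eef2 from -0.13 to 0.11 and Eif1 from -0.0059 to 0.178, and Eif1 was negative without mAktDKO mouse 3 (-0.0059) and without control mouse 3 (-0.0059). Of the 38 factor genes with a log2 fold change of at least 0.1 in size, 9 moved by over 1.5 times and Eef2kmt changed sign without control mouse 2, and 1 to 4 moved without each of the other mice. Of the 20 under 0.1 in size, 13 changed sign without 1 mouse or another. The cause of these moves was not tested. Akt2 passed 0.01 with all mice and missed it without any one mAktDKO mouse (edgeR adjusted p up to 0.0208). No paired analysis was possible because no number ties a control mouse to a mAktDKO mouse: columns of the controls run from 2 to 4 and their labels from 1 to 3. Factor genes under 5 CPM, such as Eif4ebp3 and Eef2kmt, had the widest errors.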
